A study of Homo sapiens with 6 samples.

Results

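The genes described here build the entry and the exit of the secretory pathway: the machinery that carries new proteins into the endoplasmic reticulum (ER), the COPII coat that buds vesicles from it, and the COPI coat that returns them from the Golgi. They were chosen by gene symbol, with a rule that holds no measured value but was drawn up with earlier results of these data known, and 64 of the 17891 genes in the deposited table belong to them: 23 of translocation, 19 of COPII and 22 of COPI. RNA was sequenced from T47D, an established luminal breast cancer line, in 3 libraries of cells carrying a PLVX-puro lentivirus with PRL, the gene of the hormone prolactin, and 3 libraries of cells carrying the control lentivirus (PLVX). All cells were grown in RPMI1640 with serum for 2 days, had no further treatment and had passed a screening step of which no detail is given. The promoter that drives PRL in the virus, and whether libraries of a group came from separate cultures or transductions, is not stated in any source at hand. The series calls them biological replicates. If they share a culture, the p-values measure a spread that is only technical.

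A secreted or membrane protein is recognised by the signal recognition particle (SRP) as it leaves the ribosome, is handed to the SRP receptor and enters the ER through the SEC61 channel, where signal peptidase removes its signal peptide. Cargo then leaves in vesicles whose inner coat, SEC23 and SEC24, selects it and whose outer cage is made of SEC13 and SEC31. The coatomer of COPI brings escaped ER residents back, bound to KDEL receptors, and the p24 proteins (TMED genes) travel in both kinds of vesicle. Secretory epithelium of the lactating breast, a target of prolactin, is known for its large ER and its heavy traffic through these coats.

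Libraries held 16211146 to 17402348 estimated counts, and levels below are CPM (the part of a library's counts that a gene takes) after TMM scaling, which takes the trimmed average gene as equal between libraries. PRL itself had 1 to 3 counts in each control library and 7789 to 8277 in each PRL library. The control libraries were less alike than the PRL libraries, with a chi-square of 12.7 to 24.4 per gene between pairs of controls and 1.66 to 2.17 between pairs of PRL libraries. Ribosomal protein genes took 15.5% to 18.6% of counts in controls and 10.0% to 10.6% in the PRL group, and TMM factors ran from 0.848 to 0.955 and from 1.08 to 1.11. Markers of luminal epithelium summed to 20500 to 26700 CPM in controls and 16200 to 16700 CPM in the PRL group, with all 10 detected. The sum moved with the abundant keratins KRT8 (log2 change -0.60), KRT18 (-0.73) and KRT19 (-0.47), while of the 10 genes 4 rose and 4 fell (median -0.04). The lists for basal epithelium (16 to 18.0 and 11.7 to 11.8 CPM over 5 genes), fibroblast and endothelium (43.4 to 60.6 and 72.4 to 73.0 CPM over 6 genes) and leukocyte (9.48 to 12.2 and 21.9 to 23.9 CPM over 5 genes) were low. In them KRT5, KRT14, MME, COL1A2, COL3A1, PDGFRB and VWF averaged 0.0208 to 0.185 CPM in a group, ACTA2, COL1A1 and (in PRL cells) CD68 made up most of the sums, and their part in the results below was not tested.

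In PRL cells, on the TMM scale, the cargo-selecting subunits of the COPII coat were higher, the p24 proteins were mostly higher and the translocation machinery was mostly lower. Of the 64 genes 61 had enough counts to be tested, and 44 of these (72.1%) passed an adjusted p of 0.05 in edgeR's quasi-likelihood test, where 62.9% of all 14076 tested genes did. The 20 rises (32.8%) were as frequent as among all genes (32.4%), and the 24 falls (39.3%) stood beside 30.5% of all genes. In 51 of the 61 genes the groups did not overlap, or 83.6%, where 69.5% of all genes did so. All PRL libraries lay above all controls in 23 and below in 28, against 35.9% above and 33.5% below among all genes. Changes were modest: the median absolute log2 fold change was 0.34, beside 0.43 over all genes, and SEC24D, LMAN1, SEC24B (higher) and COPZ2 (lower) alone changed at least 2-fold, where 10.6% of all genes rose and 5.29% fell that much. In bulk RNA such changes cannot tell fewer cells of a kind from less RNA per cell. SEC16B, LMAN1L and TMED6 had too few counts to test. SEC16B had 0 counts in every control library, which allows up to 3 counts or 0.187 to 0.203 CPM each, and 4, 1 and 10 counts in the PRL libraries.

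**Figure D1:**
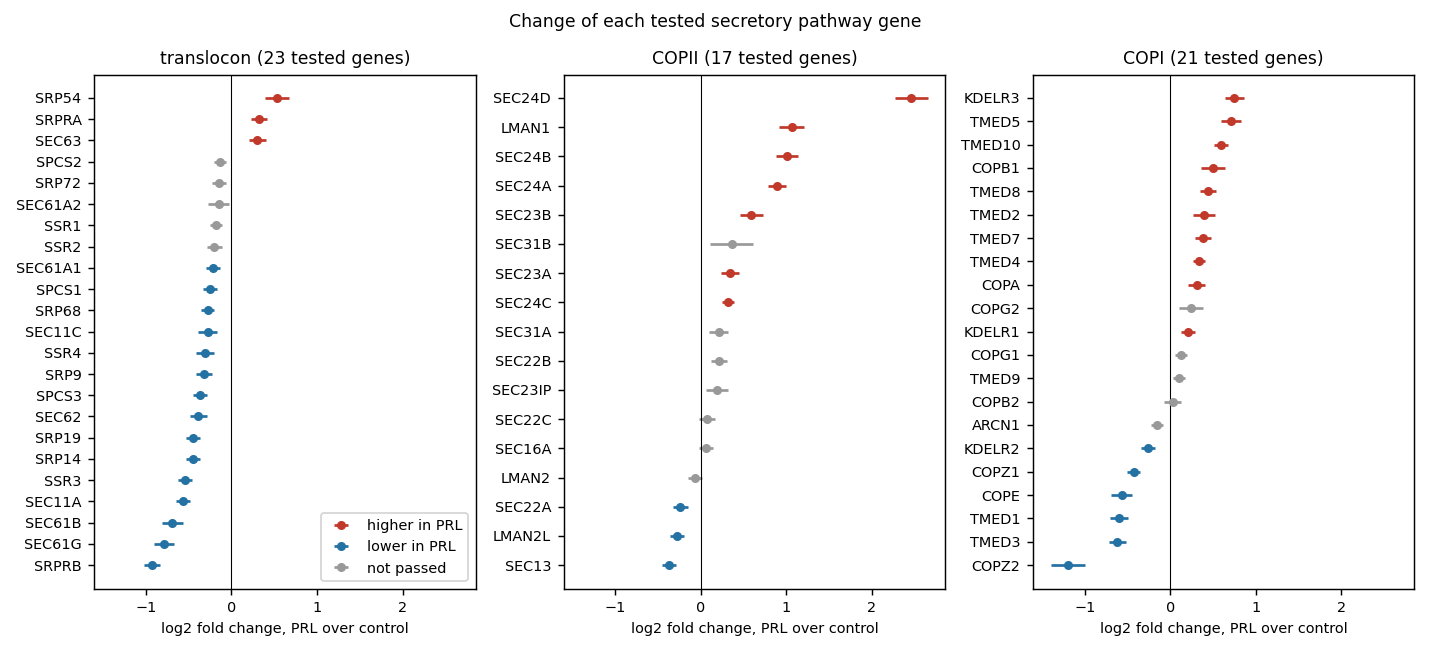
Log2 fold change of PRL over control (horizontal axis, TMM scale) with its standard error for each of the 61 tested genes, in 3 panels for translocation, COPII and COPI, red for higher, blue for lower and grey for not past an adjusted p of 0.05 (edgeR, n = 3 per group). SEC24D lies farthest to the right at 2.46, COPZ2 farthest to the left at -1.20, and most translocation genes lie left of 0. Scaling by library totals moves the median of all genes from 0.01 to 0.26.

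The 3 groups had different balances. Of 23 translocation genes 3 rose, 15 fell and 5 did not pass on the TMM scale (median log2 fold change -0.28), while scaling by library totals gave 3 rises and 6 falls, FPKM 3 and 8, and TPM turned the balance to 8 rises and 3 falls. Of 17 COPII genes 7 rose, 3 fell and 7 did not pass (median 0.21), with 13 rises and 0 falls by library totals and FPKM and 14 and 0 by TPM. COPI genes rose in 10 of 21 cases and fell in 6 (median 0.21), with 14 rises and 5 falls by library totals and FPKM and 15 and 2 by TPM. Among all genes 32.4% rose and 30.5% fell on the TMM scale, and the subgroup counts below stand beside the same shares. Of all calls over all genes 51.4% were rises on the TMM scale, 72.9% by library totals, 69.9% by FPKM and 83.7% by TPM. The median of all genes was 0.01 on the TMM scale, 0.26 with library totals, 0.20 with FPKM and 0.39 with TPM. Library totals change the scaling alone, while the FPKM and TPM values were tested with limma after adding a pseudocount of 1 and with another filter on low genes. Against that median the order of the groups was the same in each: 20 of 23 translocation genes lay below the median of all genes and 13 of 17 COPII genes and 14 of 21 COPI genes above it, under TMM, library totals, FPKM and TPM alike. A change of scaling moves nearly all genes by much the same amount, so this sameness was largely fixed beforehand and is no support. Without control replicate 3 the COPII rises numbered 11.

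**Figure D2:**
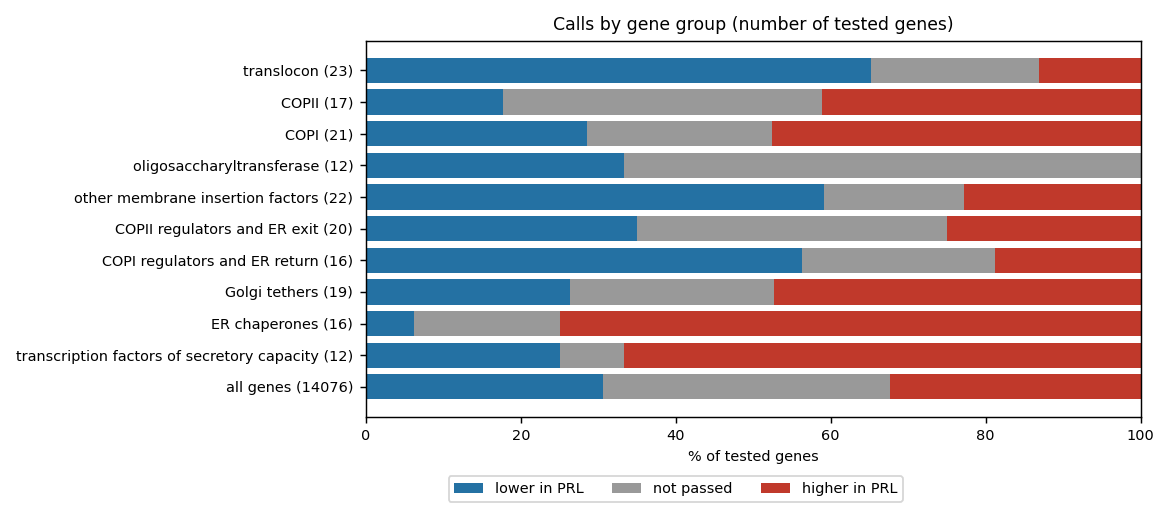
Share of tested genes (horizontal axis, percent) that were lower, not past the threshold or higher in PRL cells, for the 3 groups of secretory pathway genes, 7 related lists and all 14076 genes, with the number tested in brackets (edgeR, TMM scale). Translocation has the largest blue share of the 3 groups, 65.2% beside 30.5% over all genes, and ER chaperones the largest red share, 75.0%. On the TPM scale the translocation balance turns to 8 higher and 3 lower.

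Promoters of the coat and translocation genes often carried a short element known to bind ATF6 and XBP1, transcription factors of the unfolded protein response. RefSeq promoter sequences (GRCh38.p14, 250 bases before to 50 after each start) were at hand for 57 of the 64 genes. The element TGACGTGG, searched on both strands, stood in 12 of these 57 (21.1%), in 0.927% of all 27305 genes with a promoter sequence and in 1.05% of the 15843 coding ones. By call it stood in 5 of 17 genes that rose, 4 of 22 that fell, 2 of 16 that did not pass and in SEC16B, so it was present in each class. The full ER stress element, a CCAAT box at a fixed distance before CCACG on either strand, stood in 0 of 57 and in 0.0916% of all genes. Its CCACG end, which the reverse strand of TGACGTGG also holds, stood in 84.2%, in 42.1% of all genes and in 50.2% of the coding ones. Matching letters are a description and show no binding. The windows of 30 bases below show the element in every gene that rose or fell and holds it. Each was drawn around the element, whose place in the promoter varied, with its first base from -179 (SEC24A) to 6 (COPA) relative to the start of the gene. They are read 5′ to 3′ on the strand of the gene, with the element in capitals, which appears as its reverse complement where it lies on the other strand.
SEC24A (chr5:134648595-134648624, plus strand): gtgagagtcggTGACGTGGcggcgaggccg
SEC23A (chr14:39103221-39103250, minus strand): tcccctcctctTGACGTGGcagaggcggcg
COPA (chr1:160343227-160343256, minus strand): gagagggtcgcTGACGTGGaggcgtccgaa
COPB1 (chr11:14499841-14499870, minus strand): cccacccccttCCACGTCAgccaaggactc
KDELR3 (chr22:38468039-38468068, plus strand): ggccgccctggCCACGTCAccgcccggcca
SSR3 (chr3:156554148-156554177, minus strand): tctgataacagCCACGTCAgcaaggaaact
SEC62 (chr3:169966779-169966808, plus strand): ccctcctcgctCCACGTCAgagggaaccgg
SRP19 (chr5:112861164-112861193, plus strand): aagtcttcatgCCACGTCAgagactagaga
SSR4 (chrX:153794528-153794557, plus strand): tcagggaggggCCACGTCAgtgctgccaga

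Within the signal recognition particle and its receptor the subunits went in opposite directions. SRPRB, the membrane-anchored beta subunit of the SRP receptor (chr3:133784033-133825772), had 112, 89.6 and 94.65 CPM in control replicates 1 to 3 and 50.2, 53.85 and 51.9 CPM in the PRL replicates. All PRL libraries lay well below all controls, a 1.90-fold fall (log2 change -0.93, SE 0.09, edgeR adjusted p = 1.64e-05) that held under all 18 alternatives, at -0.45 by TPM and -0.99 after correction for GC content and length. SRPRA, the alpha subunit that binds the particle itself, stood at 269, 304 and 326 CPM in controls and 371, 368 and 380.3 CPM in PRL cells. It thus rose while its partner fell (0.32, SE 0.09, edgeR adjusted p = 0.00847), also under all 18 alternatives. The share of SRPRB in the summed FPKM of both subunits went from 30.5%, 23.7% and 23.4% in controls to 12.5%, 13.4% and 12.6%. Of the exon bases of SRPRB 21.1% overlap another gene, mainly RAB6B on the opposite strand, and counts there cannot be divided without strand.

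SRP54, the GTPase that binds the signal sequence, had 54.6, 54.6 and 82.2 CPM in controls and 92.1, 94.1 and 90.6 CPM in PRL cells. The groups did not overlap, with control replicate 3 nearest to the PRL libraries (log2 change 0.53, SE 0.14, edgeR adjusted p = 0.00702). The other particle proteins did not rise on the TMM scale. SRP14, which with SRP9 pauses elongation, had 432.5, 376 and 428 CPM in controls and 294, 305 and 304 CPM in PRL cells (-0.45, edgeR adjusted p = 7.73e-04), and SRP19, needed to assemble the particle, fell by the same 0.45 on the log2 scale from a mean of 69.4 to 50.8 CPM. SRP9 (-0.32) and SRP68 (-0.28) fell as well, and SRP72, the partner of SRP68, did not pass (-0.15, edgeR adjusted p = 0.141), but was called higher by TPM (0.26) and lower after the GC and length correction (-0.31). On the TPM scale SRP14 and SRP9 no longer fell, at 0.00 and 0.14, and the falls of SRP19 (-0.03) and SRP68 (-0.13) were not past the threshold, nor were they with library totals (-0.20 and -0.03). SRP14 and SRP9 also lost their calls after the GC and length correction (-0.09 and -0.14), and SRP9 with library totals, FPKM (both -0.06) and without PRL replicate 1 or 3. SRP14, SRP68, SRP72 and SRP9 have pseudogenes of their name in GENCODE 29, with which reads could be shared.

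The channel that the particle feeds was lower in its small subunits. SEC61G, the gamma subunit, had 123, 95.1 and 85.6 CPM in controls and 56.8, 62.2 and 56.55 CPM in PRL cells. Even the lowest control stood above the highest PRL library, a 1.73-fold fall (log2 change -0.79, SE 0.12, edgeR adjusted p = 2.65e-04). SEC61B, the beta subunit, went from 98.9, 71.25 and 74.5 CPM to 49.8, 48.1 and 54.2 CPM (-0.69, SE 0.12, edgeR adjusted p = 5.92e-04). Both falls held under all 18 alternatives but shrank to -0.47 and -0.23 once GC content and length were corrected for in each library. Both transcripts are very short, at 380 and 515 bases by the length that their deposited counts and FPKM imply. The pore itself, SEC61A1, lay at 404, 390.4 and 366 CPM and then at 332.5, 334 and 333.5 CPM (-0.22, SE 0.08, edgeR adjusted p = 0.0291). That small fall ended with library totals (0.04), FPKM (0.04), upper quartile scaling and the replicate block, and when any PRL library was left out, and it turned to a rise by TPM (0.24, limma adjusted p = 0.0156). SEC61A2, its rarer paralog, did not pass (-0.15), and SEC61A1 made up 94.6% ± 0.862 of the FPKM of both in controls and 94.4% ± 0.245 in PRL cells (SD, n = 3).

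SEC62 and SEC63, the membrane partners of the channel that serve proteins translocated after synthesis, moved apart. SEC62 had 395.5, 315.5 and 301 CPM in controls and 257, 264 and 251 CPM in PRL cells (log2 change -0.39, edgeR adjusted p = 0.00743), a fall that was lost by library totals, FPKM and TPM (0.08). SEC63, a J-domain protein that recruits the chaperone BiP, rose from a mean of 54.6 ± 8.01 to 67.3 ± 2.01 CPM (0.30, edgeR adjusted p = 0.0242), a call lost without control replicate 1 or 2, without any PRL library and after the GC and length correction (0.14).

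The TRAP complex, which sits beside the channel and helps certain signal sequences to enter, and signal peptidase had no rise on the TMM scale. Of their 4 and 5 genes 2 and 4 fell, while TPM gave 2 rises and 0 falls in the first and 1 and 0 in the second. SSR2 was the most abundant transcript of all 64 genes per length, at 646 ± 21.0 FPKM in controls and 672 ± 7.18 FPKM in PRL cells, while its TMM-scaled level was 749.7 ± 55.4 and 651.6 ± 14.1 CPM and did not pass (log2 change -0.20, edgeR adjusted p = 0.0632). SSR3 had 241, 216 and 212 CPM in controls and 159, 150.2 and 150.3 CPM in PRL cells, a fall (-0.54, SE 0.08, edgeR adjusted p = 1.76e-04) that TPM alone of the alternatives ended (-0.09). SSR4 fell (-0.31) and SSR1 did not pass (-0.18, edgeR adjusted p = 0.0544). SSR1 and SSR2 were each called lower under several alternatives, among them DESeq2 (-0.20 and -0.22) and without control replicate 3 (-0.17 and -0.23). On the TPM scale SSR1, SSR2 and SSR4 turned positive (0.26, 0.25 and 0.13), and SSR2 and SSR4 did so after the GC and length correction (0.16 and 0.14). SSR2 was called higher after that correction (edgeR adjusted p = 0.0241). SSR4 lost its call by library totals and FPKM too, and without control replicate 1 or PRL replicate 1 or 2.

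Signal peptidase has a catalytic subunit in the version SEC11A or SEC11C and accessory subunits. SEC11A had 167, 145.5 and 166 CPM in controls and 107, 106 and 109 CPM in PRL cells, with no overlap (log2 change -0.57, SE 0.08, edgeR adjusted p = 1.25e-04, -0.21 after the GC and length correction and -0.12 without a call by TPM). SPCS3 (-0.37), SEC11C (-0.28) and SPCS1 (-0.25) fell by less and SPCS2 did not pass (-0.14, edgeR adjusted p = 0.109). By TPM these 4 turned to 0.07, 0.12, 0.20 and 0.31. After the GC and length correction SEC11C was called higher, the reverse of its fall (0.21, edgeR adjusted p = 0.0289). The calls of SPCS3, SEC11C and SPCS1 were lost by library totals and FPKM. SEC11C lost its call without control replicate 1 or any PRL library, and SPCS1 without PRL replicate 1 or 2. Of the exon bases of SPCS1 58.1% lie opposite NEK4, so its counts may include reads of that gene.

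SEC24, the COPII subunit that binds cargo, rose in all 4 of its paralogs, and the rarest rose most. SEC24D (chr4:118722823-118838683) had 3.39, 2.68 and 5.30 CPM in controls and 22.2, 20.6 and 20.1 CPM in PRL cells. Every PRL library lay far above every control, a 5.50-fold rise (log2 change 2.46, SE 0.19, edgeR adjusted p = 2.58e-06). It was 1.83 on the log2(FPKM + 1) scale, which understates changes of low genes, and 2.25 to 2.81 when 1 library was left out. SEC24B had 12.8, 13.1 and 17.7 CPM in controls and 31.3, 28.7 and 28.4 CPM in PRL cells (1.01, SE 0.13, edgeR adjusted p = 6.29e-05), and SEC24A 19.0, 18.9 and 25.0 CPM and then 39.5, 38.2 and 38.9 CPM (0.89, SE 0.11, edgeR adjusted p = 6.41e-05). In both, control replicate 3 was the highest control and still lay below each PRL library. SEC24C, the most abundant paralog, had 197, 195.5 and 192 CPM in controls and 244, 244 and 243 CPM in PRL cells, the tightest groups of the 4 (0.32, SE 0.07, edgeR adjusted p = 0.00192). All 4 rises held under all 18 alternatives. For SEC24C 42.9% of exon bases lie opposite another annotated gene, AC022400.8.

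As a share of the summed FPKM of the 4 paralogs, a measure that no scaling between libraries can move, SEC24D went from 1.93%, 1.53% and 2.60% in controls to 7.61%, 7.21% and 7.24%. SEC24C went down from 83.4% ± 2.52 to 73.5% ± 0.646, while SEC24A and SEC24B gained, from 6.55% ± 0.835 to 8.95% ± 0.0820 and from 8.08% ± 1.18 to 10.2% ± 0.386 (SD, n = 3). SEC24C remained the main paralog in each library. The exact permutation p was 0.10 for each, the smallest that 3 against 3 libraries can give, or 0.132 adjusted over all 49 shares computed in 16 families.

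SEC23, the partner of SEC24 and the activator of the coat's GTPase SAR1, rose in both forms. SEC23B had 67.4, 58.9 and 88.6 CPM in controls and 109.5, 108 and 106 CPM in PRL cells (log2 change 0.59, SE 0.13, edgeR adjusted p = 0.00224). SEC23A rose from a mean of 26.5 ± 3.63 to 33.7 ± 2.11 CPM (0.34, edgeR adjusted p = 0.016), a call lost without control replicate 2 or PRL replicate 1. In the outer cage SEC13 fell from 119 ± 8.31 to 91.97 ± 3.24 CPM (-0.37, edgeR adjusted p = 0.00175), a fall lost by library totals (-0.12), FPKM (-0.12), TPM (0.08) and after the GC and length correction (-0.13), while SEC31A (0.21, edgeR adjusted p = 0.125) and SEC31B (0.36, edgeR adjusted p = 0.228) did not pass. SEC31A was called higher by library totals (0.46), FPKM (0.41), TPM (0.61) and without control replicate 3 (0.39), and SEC31B by TPM (0.66), with the replicate block (0.42) and without control replicate 2 (0.72). Whether the cage differed from SEC23 and SEC24 was not tested. SEC13 also serves the nuclear pore and a nutrient-sensing complex. The exit site scaffold SEC16A (0.06) and SEC23IP (0.19), a binding partner of SEC23, did not pass, and both were called higher by library totals (0.31 and 0.44), FPKM and TPM.

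Among the lectins that ferry glycoproteins out of the ER, LMAN1 stood out. LMAN1 (ERGIC-53, the receptor that with MCFD2 carries coagulation factors, chr18:59327823-59359962) had 37.2, 40.6 and 59.9 CPM in controls and 99.7, 96.9 and 90.45 CPM in PRL cells. It rose 2.08-fold (log2 change 1.06, SE 0.15, edgeR adjusted p = 1.49e-04), from 0.93 to 1.31 with 1 library left out, and its partner MCFD2 rose too, by 0.45 (edgeR adjusted p = 5.27e-04). LMAN2, by far the most abundant per length at 156 ± 1.32 FPKM in controls, did not pass (-0.07, edgeR adjusted p = 0.466, but called higher at 0.19 by library totals and FPKM and 0.39 by TPM). LMAN2L fell by 0.28 on the log2 scale, a call lost by library totals, FPKM and TPM (0.11). LMAN1 made up 3.77%, 4.59% and 6.61% of the FPKM of the 4 lectins in controls and 10.8%, 10.5% and 9.72% in PRL cells. In the SEC22 group, of which SEC22B is the fusion protein that acts between ER and Golgi, SEC22B (0.21, edgeR adjusted p = 0.0637) and SEC22C (0.07) did not pass but were called higher by library totals (0.46 and 0.32), FPKM, TPM and without control replicate 3, and SEC22A (-0.24, edgeR adjusted p = 0.0365) lost its call under 11 alternatives, among them each PRL library left out and control replicate 1 or 3 left out.

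**Figure D3:**
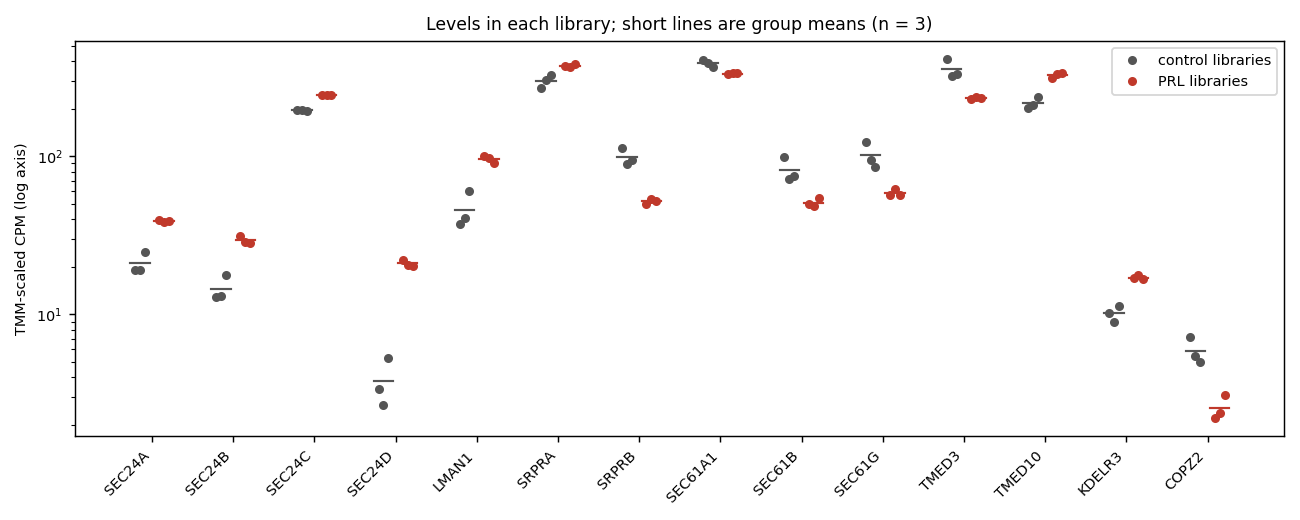
TMM-scaled CPM (vertical log axis) of 14 named genes in each library, grey for the 3 controls and red for the 3 PRL libraries in the order of replicates 1 to 3, with short lines at the group means. SEC24D goes from 2.68 to 5.30 CPM in controls to 20.1 to 22.2 CPM in PRL cells, and SRPRA and SRPRB, the subunits of 1 receptor, move in opposite directions; the small fall of SEC61A1 turns to a rise on the TPM scale.

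Of the 9 genes of the coatomer, a complex whose subunits are assembled together, 2 rose and 3 fell on the TMM scale (5 and 3 by library totals, by FPKM and without control replicate 3, 6 and 1 by TPM). COPB1 (beta) had 48.5, 48.7 and 71.6 CPM in controls and 82.9, 77.0 and 79.8 CPM in PRL cells (log2 change 0.50, SE 0.14, edgeR adjusted p = 0.00767), and COPA (alpha) rose from a mean of 199.6 ± 28.1 to 248 ± 2.84 CPM (0.31, edgeR adjusted p = 0.0173). Control replicate 3 was the highest control in both, and COPA lost its call without control replicate 2 or PRL replicate 2 or 3. COPE (epsilon) had 336, 268 and 235 CPM in controls and 182, 187 and 198 CPM in PRL cells (-0.57, SE 0.12, edgeR adjusted p = 0.00185), and COPZ1 (zeta) fell from 323 ± 30.3 to 239.7 ± 2.60 CPM (-0.43, edgeR adjusted p = 0.00125). Both falls ended on the TPM scale only, at -0.18 and -0.01, and COPE shrank to -0.21 after the GC and length correction. COPZ2, the rarer zeta form, had 7.19, 5.49 and 4.99 CPM in controls and 2.22, 2.37 and 3.08 CPM in PRL cells, a fall (-1.20, SE 0.20, edgeR adjusted p = 4.63e-04) that held under all 18 alternatives, at -0.65 by TPM with its pseudocount. COPB2 (0.03), COPG1 (0.13), COPG2 (0.24) and ARCN1 (-0.15), the beta prime, gamma and delta subunits, did not pass. COPB2, COPG1 and COPG2 were called higher by library totals (0.28, 0.38 and 0.49), FPKM, TPM and without control replicate 3. COPG1 was also called higher with upper quartile scaling (0.18). ARCN1 was called higher by TPM (0.30) and lower by DESeq2 (-0.17) and after the GC and length correction (-0.27). The share of COPB1 in the FPKM of COPB1 and COPB2 went from 26.1% ± 1.77 to 32.9% ± 0.720.

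KDEL receptors, which return chaperones to the ER, shifted among themselves. KDELR3, the rarest, had 10.2, 8.99 and 11.3 CPM in controls and 16.9, 17.6 and 16.7 CPM in PRL cells, a rise (log2 change 0.75, SE 0.11, edgeR adjusted p = 1.93e-04) that held under all 18 alternatives. KDELR2 had 312, 286 and 266 CPM in controls and 241, 242 and 236 CPM in PRL cells (-0.26, edgeR adjusted p = 0.0153), with the call lost by library totals (0.00), FPKM, TPM (0.17) and without any PRL library. KDELR1 passed narrowly (0.21, edgeR adjusted p = 0.0491) and lost its call under 9 alternatives, among them each PRL library or control replicate 2 left out. Per length the first and second receptor were level in controls, at 48.2% ± 0.570 and 48.9% ± 0.810 of the family's FPKM, and apart in PRL cells, at 55.3% ± 1.92 and 39.9% ± 1.68. KDELR3 went from 2.90% ± 0.464 to 4.81% ± 0.253.

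Of the 9 tested p24 cargo receptors 6 rose, 2 fell and 1 did not pass on the TMM scale (7, 2 and 0 by library totals and FPKM, 7 higher and 1 lower by TPM). TMED10, the core delta member, had 203, 209 and 238 CPM in controls and 314, 329 and 334 CPM in PRL cells (log2 change 0.59, SE 0.08, edgeR adjusted p = 1.64e-04). TMED5 had 28.3, 27.6 and 37.7 CPM in controls and 54.2, 50.05 and 48.6 CPM in PRL cells (0.71, SE 0.12, edgeR adjusted p = 4.21e-04). In each the highest control lay below the lowest PRL library. TMED8 (0.44), TMED7 (0.38) and TMED4 (0.34) rose by less and, with TMED10 and TMED5, held under all 18 alternatives. TMED2, the core beta member, rose (0.39, edgeR adjusted p = 0.0208) but lost its call without control replicate 1 or 2 or any PRL library, and TMED9 did not pass (0.10, edgeR adjusted p = 0.278). TMED7 shares 24% of its exon bases with other genes, mainly its readthrough TMED7-TICAM2.

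TMED3 went the other way, from 413.5, 321 and 333 CPM in controls to 229, 235 and 232 CPM (log2 change -0.62, SE 0.10, edgeR adjusted p = 3.68e-04), under all 18 alternatives. TMED1 fell from 43.97 ± 5.96 to 29.1 ± 1.82 CPM (-0.60, edgeR adjusted p = 6.21e-04, and -0.19 without a call by TPM). DNM2 on the opposite strand overlaps 51.3% of its exon bases. TMED3 was the leading p24 transcript per length in controls, with 44.6%, 39.8% and 37.3% of the family's FPKM, and had 26.7%, 27.3% and 27.0% in PRL cells, close to the 24.2% ± 0.564 of TMED2. TMED10 gained from 8.38% ± 0.870 to 12.8% ± 0.383.

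**Figure D4:**
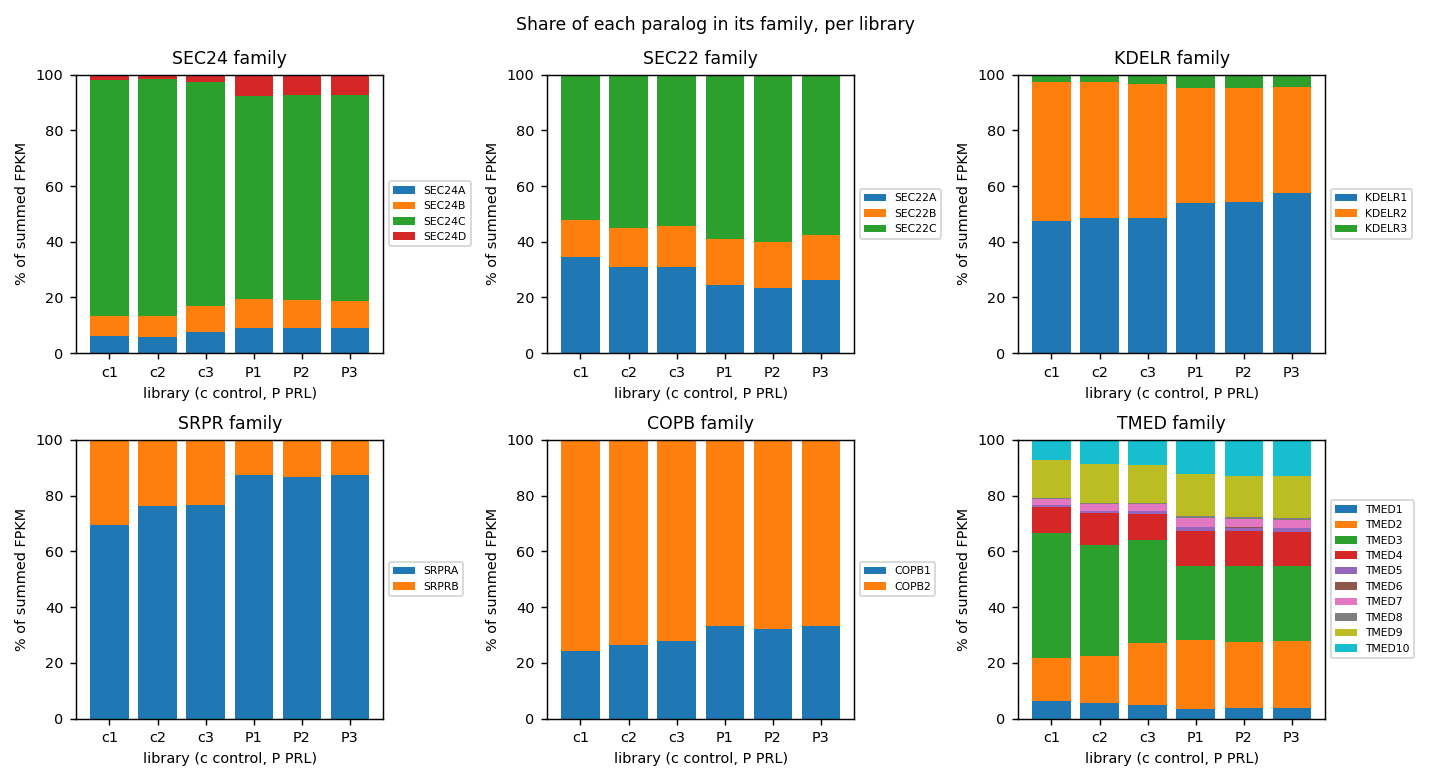
Share of each gene in the summed FPKM of its family (vertical axis, percent) in the 3 control (c) and 3 PRL (P) libraries, for 6 families. SRPR and COPB hold different subunits of a complex, not interchangeable forms. The share of SEC24D grows from 1.53% to 2.60% in controls to 7.21% to 7.61% in PRL cells, and those of SRPRB and TMED3 shrink.

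Over the 16 families 37 of 49 shares (75.5%) did not overlap between the groups, near the 69.5% of all genes whose levels did not. In a family of 2 genes both shares carry the same information. SRPR, COPB, SSR and SPCS join different subunits of a complex by their symbols, so their shares do not compare interchangeable forms. The exceptions were both genes of SEC31, SEC61A, COPG and SEC11, and TMED6, SSR1, SSR4 and SPCS3. Each non-overlapping share had the exact permutation p of 0.10 (0.132 adjusted), so none could pass a threshold of 0.05 in this design.

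Related machinery outside these genes gave the following counts, on the TMM scale and in edgeR's quasi-likelihood test, by which 32.4% of all genes rose and 30.5% fell. Oligosaccharyltransferase, which adds glycans at the channel, had 0 rises and 4 falls of 12, or 33.3% (3 and 3 by library totals, 6 and 1 by TPM), with KRTCAP2 (-0.93) and TMEM258 (-0.60), small subunits, the most significant. Other insertion factors of the ER membrane had 5 rises (22.7%) and 13 falls (59.1%) of 22 (8 and 6 by library totals, 12 and 2 by TPM), with EMC6 at -0.77 and CAMLG at 0.69. Regulators of COPII and ER exit had 5 rises (25.0%) and 7 falls (35.0%) of 20 (10 and 2 by library totals, 11 and 0 by TPM), led by MIA2 (0.71), a receptor for bulky cargo at exit sites, and CNIH4 (-0.69), a cargo receptor. SAR1B, the GTPase that starts the coat and the head-to-head neighbour of SEC24A, did not pass (-0.02). Its paralog SAR1A fell (-0.36), a call lost by library totals (-0.11), FPKM (-0.10) and TPM (0.09). Regulators of COPI and ER return had 3 rises (18.8%) and 9 falls (56.2%) of 16 (5 and 2 by library totals, 5 and 0 by TPM), led by ARFGAP3 (0.79), which acts on the coat's GTPase, and ZW10 (-0.74), a tether subunit. Golgi tethers had 9 rises (47.4%) and 5 falls (26.3%) of 19 (12 and 2 by library totals, 14 and 1 by TPM), led by GOLGA2 (0.63) and COG3 (0.78).

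ER chaperones, some of which KDEL receptors retrieve, rose in 12 of 16 cases (75.0%) and fell in 1, with a median log2 fold change of 0.42 (14 and 0 by TPM, 12 and 1 by library totals). HSPA5, which encodes BiP, rose from 557.5 ± 34.6 to 1235 ± 20.3 CPM (1.15, edgeR adjusted p = 2.53e-06) and DNAJB9 from 6.59 ± 0.667 to 18.3 ± 0.947 CPM (1.47, edgeR adjusted p = 2.81e-06). SDF2L1 was the gene that fell (-0.54). Of 12 transcription factors and proteases that set secretory capacity 8 rose and 3 fell (9 and 1 by TPM). CREB3L1, a membrane-bound factor that is cut and released at the Golgi, rose from 0.194 ± 0.0656 to 17.4 ± 1.41 CPM (6.43, SE 0.22, edgeR adjusted p = 5.78e-09), and BHLHA15, a factor of secretory cell architecture, from 0.275 ± 0.248 to 5.26 ± 1.02 CPM (4.20, edgeR adjusted p = 1.03e-05). These folds rest on few control counts, 3, 4 and 2 for CREB3L1 and 2, 2 and 9 for BHLHA15, whose log2 change went from 3.85 to 5.26 with 1 library left out, the highest without control replicate 3. With their pseudocount of 1 the FPKM values gave 2.96 and 2.82 for these low genes. XBP1, the factor of the promoter element above, rose by 0.31 (edgeR adjusted p = 0.0163), a call lost without any PRL library, and ATF6 did not pass (0.16). The sum of all 64 secretory pathway genes took 0.768% to 0.834% of unscaled library counts in controls and 0.894% to 0.908% in PRL cells. TMM factors (0.848 to 0.955 in controls, 1.08 to 1.11 in PRL cells) are not applied to these shares. Applying them would lower the PRL values relative to controls, and no TMM-scaled sum is given.

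Transcript length and the order of the control libraries went along with these results. Length here is the one implied by a gene's deposited estimated counts and FPKM, not an annotated length. Genes that rose had a median length of 3676 bases, those that fell 1580 and those that did not pass 3403. Across the 61 genes log2 fold change and length had a Spearman correlation of 0.55, and across 13896 genes 0.22, in which points share libraries and are not independent. Genes under 1000 bases had a median of -0.59 over all genes and -0.69 in the 5 among these, and genes of 3000 bases or more 0.14 and 0.24. After correction of each library for GC content and length, 11 of the 15 translocation falls kept their call and those of SRP14, SRP9, SSR4 and SEC11C did not, while SRP72 (-0.31), SSR1 and SPCS2 newly passed as lower. SEC11C (0.21) and SSR2 (0.16) were called higher instead. All 7 COPII and all 10 COPI rises kept theirs, and the medians of the 3 groups were -0.22, 0.12 and 0.16. Control replicate 3 was the control nearest to the PRL libraries in 17 of the 20 genes that rose, replicate 1 in 2 and replicate 2 in 1. In the 24 that fell, control replicate 2 was nearest in 13, replicate 3 in 11 and replicate 1 in 0. Control replicate 1 also had the lowest TMM factor (0.848) and the highest share of ribosomal protein genes (18.6%). The same order was not counted over all called genes.

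Of the 20 rises 15 and of the 24 falls 5 kept direction and call under all 18 alternatives of scaling, filter, tool and library. The rises were SEC24A, SEC24B, SEC24C, SEC24D, SEC23B, LMAN1, SRP54, SRPRA, COPB1, KDELR3, TMED4, TMED5, TMED7, TMED8 and TMED10. The falls were SRPRB, SEC61B, SEC61G, COPZ2 and TMED3. By group, 6 of 7 COPII rises, 7 of 10 COPI rises and 2 of 3 translocation rises held in this way, and 0 of 3, 2 of 6 and 3 of 15 falls. Library totals, FPKM and TPM moved the median of all genes up, to 0.26, 0.20 and 0.39, and no alternative took it below -0.01. Falls were thus harder to keep than rises, and the counts of rises and falls held are not comparable. COPE, COPZ1, SEC11A, SSR3 and TMED1 lost their call under TPM alone. The share of calls held over all genes was not computed.

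**Figure D5:**
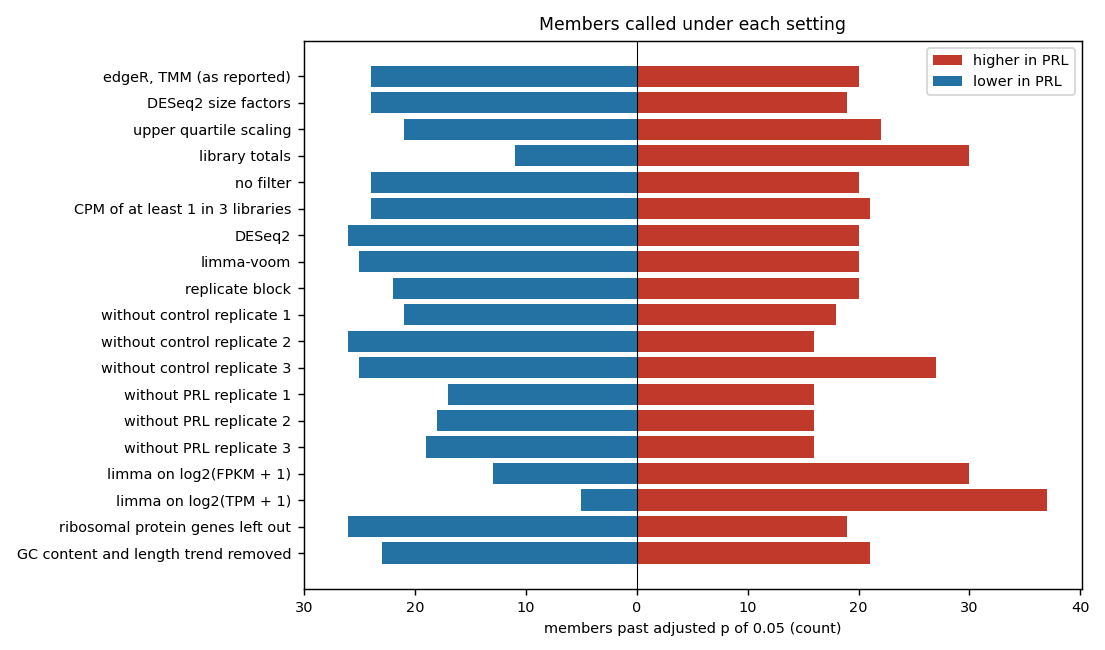
Number of the secretory pathway genes past an adjusted p of 0.05 (horizontal axis), higher to the right and lower to the left, in the reported fit (top bar) and under each of 18 alternatives. The reported split is 20 higher and 24 lower; library totals give 30 and 11, FPKM 30 and 13 and TPM 37 and 5, while the remaining bars lie between 16 and 27 higher and between 17 and 26 lower.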

How the data were processed

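Total RNA of 6 T47D libraries, 3 per group, was extracted with Trizol and sequenced, per the labels' protocols. The submitters' processing notes name HISAT2 2.1.0, Bowtie2 2.3.4.3 and GRCh38.p13. They do not name the counter, the RNA selection or the strandedness. The authors deposited, per gene and library, FPKM, TPM and an estimated count, per the file headers. The deposited estimated counts (44.1% to 45.9% not whole) were rounded here. Libraries were grouped by title.

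Counts were tested in R 4.3.3 with edgeR 4.0.16 (robust quasi-likelihood fit, group as the only term, filterByExpr, TMM), with Benjamini-Hochberg adjustment over 14076 genes and a threshold of 0.05. The test was checked on simulated counts, where it called 68.3% of 60 genes changed 1.5-fold, 92.6% of 68 changed 2-fold and 100% of 68 changed 4-fold. Of 13731 unchanged genes it called 0.0655%. Far fewer genes changed there than were called in the data, so TMM under such wide change was not checked. Both groups were simulated with the same spread, unlike the data, so calls under unequal spread were not checked either. A gene that did not pass may still have changed by a small fold. Shares of families were computed from FPKM and compared with an exact two-sided permutation test. Alternatives used DESeq2 1.42.0, limma 3.58.1 (log2 of FPKM or TPM plus 1, mean of at least 1), mgcv 1.9.3 (a correction of each library for its smooth dependence on GC content and length), other scalings and filters, the replicate number as a block, and each library left out. Coordinates, overlaps and GC content are from GENCODE 29 on GRCh38. Gene length was derived from the deposited estimated counts, library totals and FPKM, as a median over libraries, and not from an annotation. Any of the 64 genes could be named, with library values for the largest changes in each group, and of each related list the 2 genes of smallest adjusted p. SAR1A, SAR1B, MCFD2, SDF2L1, XBP1 and ATF6 were named after their values were seen. The genes and lists were chosen with earlier results of these data known. Intervals and floors cover counting error only.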

Additional observations from a re-analysis of the deposited data

How the results depend on the processing

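Library totals, which change the scaling alone, and the FPKM and TPM tests, which also change tool, filter and pseudocount, moved counts of calls most. With TPM 37 of the secretory pathway genes rose and 5 fell; library totals gave 11 falls and FPKM 13. Translocation falls numbered 6 with library totals, 8 with FPKM and 3 with TPM, and TPM gave 8 translocation rises. COPII rises numbered 13, 13 and 14 and COPII falls 0 in each of these settings, and COPI falls numbered 2 with TPM. Over all genes TPM gave 7113 rises, and falls numbered 2394 with library totals, 2360 with FPKM and 1381 with TPM. The share of calls that were higher went from 51.4% to 72.9%, 69.9% and 83.7% over all genes and from 45.5% to 73.2%, 69.8% and 88.1% in the secretory pathway. Log2 fold changes that turned positive on TPM were KDELR2 0.17, ARCN1 0.30, SEC13 0.08, SEC22A 0.17, LMAN2 0.39, LMAN2L 0.11, SEC61A1 0.24, SEC61A2 0.28, SEC62 0.08, SRP72 0.26, SRP9 0.14, SSR1 0.26, SSR2 0.25, SSR4 0.13, SEC11C 0.12, SPCS1 0.20, SPCS2 0.31 and SPCS3 0.07, with SRP14 at 0.00. Library totals turned SEC22A (0.01), LMAN2 (0.19), SEC61A1 (0.04), ARCN1 (0.10), SEC61A2 (0.10), SRP72 (0.11), SPCS2 (0.11), SSR1 (0.08) and SSR2 (0.06) positive, with SPCS1 and KDELR2 at 0.00. FPKM turned LMAN2 (0.19), SEC61A1 (0.04), ARCN1 (0.10), SEC61A2 (0.10), SRP72 (0.07), SPCS2 (0.11), SSR1 (0.07) and SSR2 (0.06) positive, with SPCS1 at 0.00. The GC and length correction turned SSR2 (0.16), SSR4 (0.14), SEC11C (0.21) and LMAN2 (0.06) positive, with SSR2 and SEC11C called higher. The same correction turned COPB2 negative (-0.07), as did leaving out control replicate 2 (-0.06). The cause was not tested.

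With 1 library left out at a time, rises numbered 16 to 27 and falls 17 to 26, with ranges of 2 to 3 and 10 to 17 for translocation, 6 to 11 and 2 to 3 for COPII, and 7 to 13 and 5 to 6 for COPI, and over all genes 3929 to 5264 and 3653 to 4688. Replicate numbers did not pair the libraries (correlations of deviations -0.105, 0.0428 and -0.0569), and with the replicate number as a block 20 genes rose and 22 fell. DESeq2 gave 20 rises and 26 falls. Genes under a few CPM, such as SEC16B, LMAN1L and TMED6, are limited by depth.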
